A study of Saccharomyces cerevisiae with 24 samples.

Results

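DNA replication genes of the budding yeast Saccharomyces cerevisiae were followed through a temperature shift in 3 strains with lesions in pre-mRNA splicing factors and in SS330, taken here as the comparison strain. The set holds 38 genes of the replication fork, of origin licensing, of nucleotide supply and of sister chromatid cohesion, taken by gene symbol from the 5493 named genes of the array. Of the 38, 34 genes had values on enough arrays to be tested and 4 (CTF18, CDC45, RNR1 and SMC3) did not. The tested strains were prp17 null, prp17-1 and prp22-1. Each of them, like SS330, gave 1 array before the shift, from cells at 23C (0 min), and 5 arrays from cells kept at 37C for 5, 15, 30, 60 and 120 min, which makes 24 arrays in all. The labels give no further genotype, no strain background of SS330, no culture conditions and no number of cultures, so each strain is 1 course.

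PRP17 is another name of CDC40, and CDC40 and PRP22 encode proteins that act around the second catalytic step of splicing. CDC40 was also isolated as a cell division cycle gene. On the arrays the CDC40 value lay between -2.76 and -0.63 in prp17 null, between -0.16 and 0.68 in prp17-1, between -0.50 and 0.07 on the 5 prp22-1 arrays with a value, and between -0.54 and 0.41 in SS330, so CDC40 was low in the strain labelled as the null. The array carried total RNA in the Cy5 channel against yeast genomic DNA in the Cy3 channel. Values are log2 ratios after the median of each array was set to 0. No label states the logarithm's base, taken here as 2, or which channel is on top. RNA over DNA was taken because CDC40 is low in the null and the heat shock gene HSP104 reached higher values after the shift in each strain. The disaggregase gene HSP104 reached 4.67 at 37C in prp17 null, 4.19 in prp17-1, 4.55 in prp22-1 and 4.44 in SS330, where its values at 23C were 0.89, 0.97, 0.64 and 1.24. Its lowest values at 37C were 3.97, 2.75, 2.16 and 0.76 in the same order, so HSP104 in SS330 also went below its 23C value. Whether this strain difference bears on the replication genes was not tested. The baseline of each probe is unknown, so values are compared between arrays and never between genes. The share of probes with a value ran from 79.8% to 91.6% on the prp17 null arrays and from 77.3% to 98.4% over all arrays.

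In budding yeast, DNA replication starts where the MCM helicase has been loaded by CDC6 and its partners in G1, and the fork then needs primase, 3 replicative DNA polymerases, a sliding clamp with its loader, and the single-stranded DNA binding complex RPA. Many of the fork genes, with the ribonucleotide reductase gene RNR1 and genes for cohesin, are transcribed late in G1 under the factors MBF and SBF. A sudden heat stress is known to delay yeast cells briefly in G1. In RNA from whole cultures, fewer cells in a cell cycle phase and less of a transcript per cell cannot be told apart.

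Differences were tested with limma on all 5487 probes with enough values, and a gene was called higher or lower where the Benjamini-Hochberg adjusted p over all of them was under 0.05. Strains were compared over the 5 times at 37C, with time as a block. Since a strain's arrays come from successive times of a single course and not from independent cultures, the p-values do not measure the spread between cultures. Differences are in log2 units and are given with their standard error (SE), and means with their standard deviation (SD) over the arrays at 37C.

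After the shift, replication genes were lower than at 23C over the 4 strains pooled. Of the 34 genes tested, 14 fell and 0 rose, against 16.9% of all probes that fell and 13.8% that rose. The median difference between 37C and 23C was -0.28 over the replication genes and 0.0024 over all probes, and 30 of the 34 genes had a negative difference. By role, 5 of the 10 polymerase and primase genes fell, 5 of the 9 clamp, clamp loader and RPA genes, 2 of the 7 tested genes for MCM, CDC6 and CDC45, 1 of the 4 tested genes of ribonucleotide reductase and CDC21, and 1 of the 2 tested cohesin genes. Neither CDC9, the DNA ligase, nor RAD27, the flap nuclease, passed the test, with differences of -0.21 and -0.54. Each strain has a single array at 23C. Without the prp17 null array at 0 min 6 genes were called instead of 14, and without the prp17-1 array at 0 min 9 were called. Without the strain block 8 were called, and POL30, MCM3, RFA3, RFA2, POL1 and POL2 lost their calls.

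**Figure D1:**
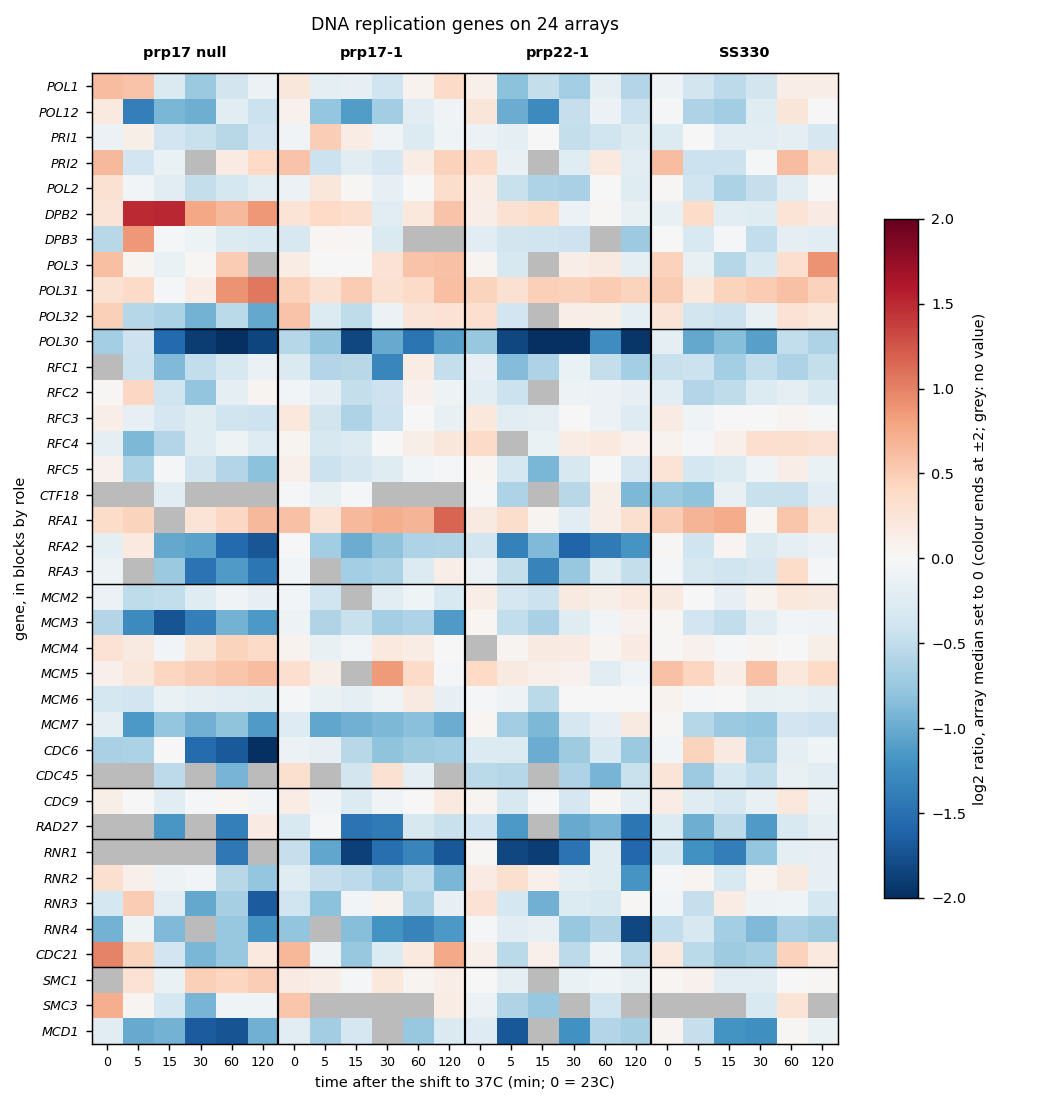
Heat map of the centred log2 ratio of each DNA replication gene (down the page, grouped by role) on the 24 arrays, with the arrays of prp17 null, prp17-1, prp22-1 and SS330 from left to right and time after the shift running from 0 to 120 min within each strain. Grey cells have no value; POL30 and RFA2 are at their lowest in the mutant strains, and DPB2 is at its highest in prp17 null.

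The DNA polymerase alpha and primase complex lays down the RNA and DNA primers of each Okazaki fragment. Of its 4 genes, 3 fell with the shift, against 16.9% of all probes. POL12, its B subunit, stood at 0.20, -1.37, -0.91, -0.97, -0.21 and -0.43 in prp17 null at the 6 times. It stood at 0.09, -0.78, -1.12, -0.70, -0.21 and -0.08 in prp17-1, and at 0.25, -0.99, -1.27, -0.46, -0.12 and -0.43 in prp22-1. In SS330 the POL12 values were -0.03, -0.61, -0.69, -0.25, 0.25 and -0.01. In all 3 mutant strains every value at 37C lay below that strain's value at 23C, and SS330 was above its start at 60 and 120 min. POL12 fell by 0.69 ± 0.12 at 37C (SE, limma adjusted p = 0.000363), and its change from 23C differed from that of SS330 by -0.75 in prp17 null and by -0.67 in prp22-1, neither of which passed the test (limma adjusted p = 0.582 and 1.00).

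PRI2, the large primase subunit, was at 0.66 in prp17 null, 0.57 in prp17-1, 0.39 in prp22-1 and 0.62 in SS330 before the shift. After 5 min at 37C it was at -0.38, -0.43, -0.15 and -0.42 in the same strains, so it was lower in each of the 4. It fell by 0.62 ± 0.12 over the times at 37C (SE, limma adjusted p = 0.000938), with the 4 strain means between -0.65 and -0.49 relative to 0 min, and the pooled difference was -1.06 after quantile normalization. POL1, the catalytic subunit, fell by 0.46 ± 0.16 (limma adjusted p = 0.0382), but this call was lost in 6 of the 24 fits that each left out 1 array, with -0.34 and an adjusted p of 0.215 without the prp17 null array at 0 min. The small primase subunit PRI1 differed by -0.05 ± 0.09 and was not called.

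DNA polymerases delta and epsilon copy the lagging and the leading strand. POL32, the smallest subunit of polymerase delta, fell by 0.67 ± 0.15 with the shift (SE, limma adjusted p = 0.00239), with a mean change from 0 min of -1.21 in prp17 null and -0.35 in SS330. POL3, the catalytic subunit of delta, and POL31, its second subunit, differed by -0.22 and 0.02 and were not called. POL2, the catalytic subunit of epsilon, was called at -0.32 ± 0.12 (limma adjusted p = 0.0474), but it was higher at 37C in prp17-1, by 0.20, and lower in the other 3 strains. The POL2 call was lost in 16 of the 24 fits without 1 array, with -0.23 and an adjusted p of 0.246 without the prp17 null array at 0 min. The epsilon subunits DPB2 and DPB3 differed by 0.24 and 0.05 and were not called.

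Among the clamp and clamp loader genes, POL30, which encodes the sliding clamp PCNA, had the most negative difference of the 34 genes with the shift. It fell by 0.84 ± 0.22 (SE, limma adjusted p = 0.00591), and the mean change from 0 min ran from -1.19 to -0.63 over the 4 strains. This value depended on the scaling: after quantile normalization of the arrays the POL30 difference was -0.23 and was not called. The clamp loader genes RFC3 and RFC5 fell by 0.38 ± 0.09 and 0.43 ± 0.13 (limma adjusted p = 0.00492 and 0.0147). The RFC5 call was lost without the prp17 null array at 0 min, with -0.39 and an adjusted p of 0.0805. RFC1, RFC2 and RFC4 had differences of -0.25, -0.14 and -0.15 and were not called.

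Of the 3 genes for RPA, 2 fell with the shift, against 16.9% of all probes. RFA2 and RFA3, the middle and small subunits, fell by 0.68 ± 0.21 and 0.50 ± 0.18 (SE, limma adjusted p = 0.0165 and 0.043), and RFA1, the large subunit, differed by 0.02 ± 0.13 and was not called. The RFA2 call was lost without the 0 min array of any 1 of the 3 mutant strains, the lowest value in size being -0.60 (adjusted p = 0.0827) without that of prp22-1. The RFA3 call was lost in 11 of the 24 fits, with -0.32 and an adjusted p of 0.277 without the prp17 null array at 0 min. It was also lost after quantile normalization (-0.34, adjusted p = 0.0791) and without the strain block (-0.47, adjusted p = 0.204).

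Of the 6 MCM helicase genes, MCM7 and MCM3 fell with the shift, against 16.9% of all probes. MCM7 was at -0.17, -1.15, -0.78, -0.95, -0.81 and -1.13 in prp17 null and at -0.25, -1.03, -0.96, -0.90, -0.83 and -0.99 in prp17-1. It was at 0.04, -0.70, -0.90, -0.34, -0.16 and 0.18 in prp22-1 and at 0.02, -0.57, -0.75, -0.78, -0.39 and -0.42 in SS330. MCM7 thus stayed below its start through 120 min in prp17 null, prp17-1 and SS330, and was above its start at 120 min in prp22-1. It fell by 0.63 ± 0.12 (SE, limma adjusted p = 0.000982), and MCM3 fell by 0.47 ± 0.13 (adjusted p = 0.0105). The MCM3 call was lost without the 0 min array of prp17 null or of prp17-1, at -0.39 and -0.43 (adjusted p = 0.0787 and 0.054), and it was also lost after quantile normalization (-0.32, adjusted p = 0.0817) and without the strain block (adjusted p = 0.221). MCM2, MCM4, MCM5 and MCM6 had differences between -0.19 and -0.03, and CDC6, which loads the helicase onto origins, differed by -0.33 ± 0.20. None of these 5 was called.

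For nucleotide supply, CDC21, the thymidylate synthase, fell by 0.71 ± 0.23 with the shift (SE, limma adjusted p = 0.0226). The CDC21 call was lost without the 0 min array of prp17 null (-0.53, adjusted p = 0.168) or of prp17-1 (-0.72, adjusted p = 0.0622). The ribonucleotide reductase genes RNR2 and RNR4, for the small subunits, and RNR3, for a second large subunit induced by DNA damage, differed by -0.34, -0.23 and -0.24 and were not called. MCD1, the cleavable subunit of cohesin, fell by 0.73 ± 0.20 (limma adjusted p = 0.0109), a call lost without the prp17 null array at 0 min (-0.62, adjusted p = 0.0758). SMC1, one of the long arms of the cohesin ring, differed by -0.11.

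RNR1, the main large subunit of ribonucleotide reductase, could not be tested because it had 19 values, of which 1 came from prp17 null. In prp17-1 it was at -0.46, -1.03, -1.87, -1.51, -1.31 and -1.70 at the 6 times, and in prp22-1 at 0.02, -1.83, -1.88, -1.48, -0.25 and -1.57. In SS330 it was at -0.35, -1.22, -1.38, -0.78, -0.18 and -0.16. Every value at 37C lay below the strain's own value at 23C in prp17-1 and prp22-1, and SS330 was back above its start at 60 and 120 min. The single value in prp17 null, at 60 min, was -1.425. RNR1 and RNR3 encode closely related proteins, as do RNR2 and RNR4, and cross-hybridisation between their probes was not tested.

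The other genes without a test had fewer values still. CDC45, a helicase subunit that joins MCM when an origin fires, had 17, with values at 37C from -0.93 to -0.52 in prp17 null, from -0.38 to 0.30 in prp17-1, from -0.94 to -0.45 in prp22-1 and from -0.73 to -0.14 in SS330. CTF18, part of an alternative clamp loader, had 15 values, and SMC3, the partner of SMC1 in cohesin, had 14. SMC3 stood at 0.72 in prp17 null at 23C and between -0.94 and 0.06 at 37C. In SS330 it had no value at 23C and 2 values at 37C, -0.31 and 0.27.

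**Figure D2:**
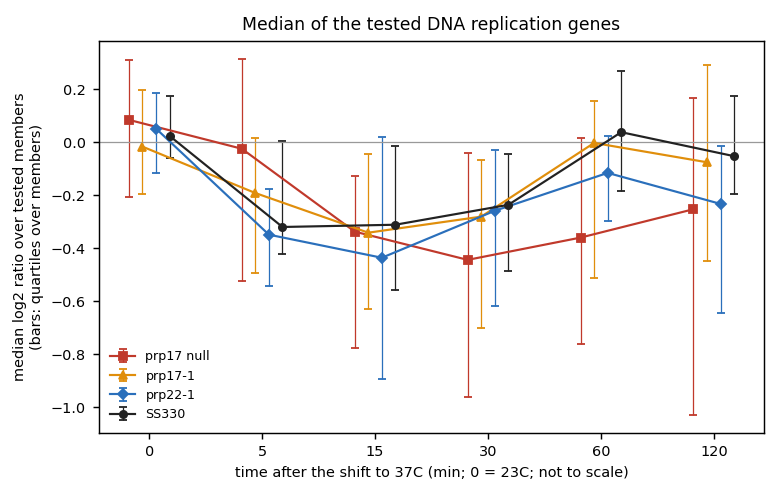
Median centred log2 ratio over the tested DNA replication genes with a value (vertical axis) at each time after the shift (horizontal axis, in min, not to scale), 1 line per strain, with bars for the quartiles over the tested genes. The SS330 median was back to 0.04 at 60 min, while the prp17 null median stayed between -0.44 and -0.25 from 15 to 120 min.

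The median over the replication genes at 0, 5, 15, 30, 60 and 120 min was 0.08, -0.03, -0.34, -0.44, -0.36 and -0.25 in prp17 null. It was -0.02, -0.19, -0.34, -0.28, -0.0030 and -0.08 in prp17-1 and 0.05, -0.35, -0.44, -0.26, -0.12 and -0.23 in prp22-1. In SS330 it was 0.02, -0.32, -0.31, -0.24, 0.04 and -0.05. Gene by gene, the median change from 0 min was -0.41 at 60 min and -0.55 at 120 min in prp17 null, -0.16 and -0.11 in prp17-1, -0.20 and -0.39 in prp22-1, and -0.03 and -0.07 in SS330. It was below 0 at each time from 5 to 120 min in all 4 strains. Among genes with a value at all 6 times, the lowest value came most often at 15 min in 3 strains. This held for 12 of 28 genes in prp17-1, 9 of 24 in prp22-1 and 16 of 34 in SS330. In prp17 null the lowest values were spread over the times. They came at 0, 5, 15, 30, 60 and 120 min for 3, 5, 4, 4, 3 and 7 of 26 genes. The time of the lowest value was not counted over all probes. All values at 37C were below the start for 15 of 31 genes in prp17 null, 14 of 34 in prp17-1, 21 of 33 in prp22-1 and 10 of 34 in SS330, against 28.9%, 23.6%, 24.6% and 21.7% of tested probes in the same strains.

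The spread over all tested probes also differed between strains. On the arrays at 37C the SD over probes was 0.814 to 1.06 in prp17 null, 0.592 to 0.857 in prp17-1, 0.596 to 0.911 in prp22-1 and 0.403 to 0.797 in SS330. Quantile normalization gives the arrays one common spread, and the calls it changed between strains or between times at 37C are named below. For 37C minus 23C it again called 14 genes, but not the same ones. POL30, MCM3 and RFA3 lost their calls, while calls of CDC9 at -0.28, POL31 at -0.35 and MCM5 at -0.44 were gained. Otherwise the part of the spread in the differences between strains was not tested.

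A comparison of 60 and 120 min with 5 to 30 min, added after the data had been seen, set the later times at 37C against the earlier ones. Of the 34 genes, 6 (17.65%) were called, against 19.8% of all probes. Of these 5 were higher late, against 12.1% of all probes, and 1 was lower late, against 7.67%. POL12 was higher late by 0.69 ± 0.10 (SE, limma adjusted p = 8.24e-05), by 0.63 to 0.77 in each of the 4 strains. PRI2 and POL3 were higher late by 0.54 ± 0.10 and 0.57 ± 0.12 (adjusted p = 0.00119 and 0.00356), and RFC4 and MCM2 by 0.29 ± 0.07 and 0.27 ± 0.07 (adjusted p = 0.00941 and 0.00757). All 5 were higher late in 4 of 4 strains. RNR2 went the other way, by -0.38 ± 0.12 (adjusted p = 0.0278), in 3 of the 4 strains. Of the 5 genes higher late, POL12 and PRI2 had fallen with the shift, and POL3, RFC4 and MCM2 had not been called. Without the strain block the calls of RFC4, MCM2 and RNR2 were lost. After quantile normalization PRI1 at -0.24, POL31 at 0.28 and POL32 at 0.36 were called as well.

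RNR2 stood at 0.32, 0.11, -0.10, -0.06, -0.56 and -0.77 in prp17 null and at 0.16, 0.32, 0.10, -0.19, -0.24 and -1.18 in prp22-1. In prp17-1 it was at -0.25, -0.46, -0.53, -0.70, -0.51 and -0.92, and in SS330 at -0.04, 0.06, -0.31, 0.05, 0.19 and -0.16. The lowest RNR2 value of each mutant strain was that at 120 min, and that of SS330 was at 15 min. RNR2 late minus early was -0.64 in prp17 null, -0.15 in prp17-1, -0.79 in prp22-1 and 0.08 in SS330. The call was lost without 1 array in 5 of 24 fits, the smallest value in size being -0.28 (adjusted p = 0.0769) without prp22-1 at 120 min. RNR4 differed by -0.40 ± 0.15 late minus early and was not called (limma adjusted p = 0.0662).

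No gene was called for a difference between strains in this late change. For the late minus early change against that of SS330, limma called 0 of 34 genes in prp17 null, 0 of 33 in prp17-1 and 0 of 34 in prp22-1, against 4.47%, 0.0% and 0.0182% of all probes. In prp17 null, 1.39% of probes were called higher and 3.09% lower. At an unadjusted p under 0.05 these counts were 8, 1 and 2, against 21.6%, 7.88% and 9.43% of all probes. Without the 3 arrays with the fewest values, an alternative chosen after seeing the data, 3 genes were called in prp17 null, with 355 probes called in all: CDC6 at -1.71, RFC5 at -0.92 and POL31 at 0.99. Without the prp17 null array at 30 min, 1 gene was called, POL32 at -0.86.

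For how far a gene moved between 23C and 37C, each mutant was set against SS330, and limma called 0 of 31 genes in prp17 null, 0 of 34 in prp17-1 and 0 of 33 in prp22-1, against 0.0% of probes in each. At an unadjusted p under 0.05 the counts were 2, 0 and 2 genes, against 7.68%, 1.42% and 2.44% of all probes. After quantile normalization 1 gene was called, RFC4 in prp22-1 at -0.90, with 175 probes called in all. With 1 array per strain at 23C, these tests had the widest errors here, such as an SE of 0.30 for POL12 in prp17 null.

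At 23C each difference between strains comes from 1 array against 1 array, and no test was made. A strain difference there cannot be told apart from variation between arrays. In prp17 null minus SS330 the differences at 0 min ran from -0.61 for MCM3 to 0.79 for CDC21, with an SD of 0.367 over 31 genes against 0.471 over all probes. In prp17-1 minus SS330 they ran from -0.39 for POL30 to 0.47 for CDC21, and in prp22-1 minus SS330 from -0.57 for POL30 to 0.48 for RNR4. Their SDs, 0.223 and 0.244, were also under those of all probes, 0.311 and 0.315.

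**Figure D3:**
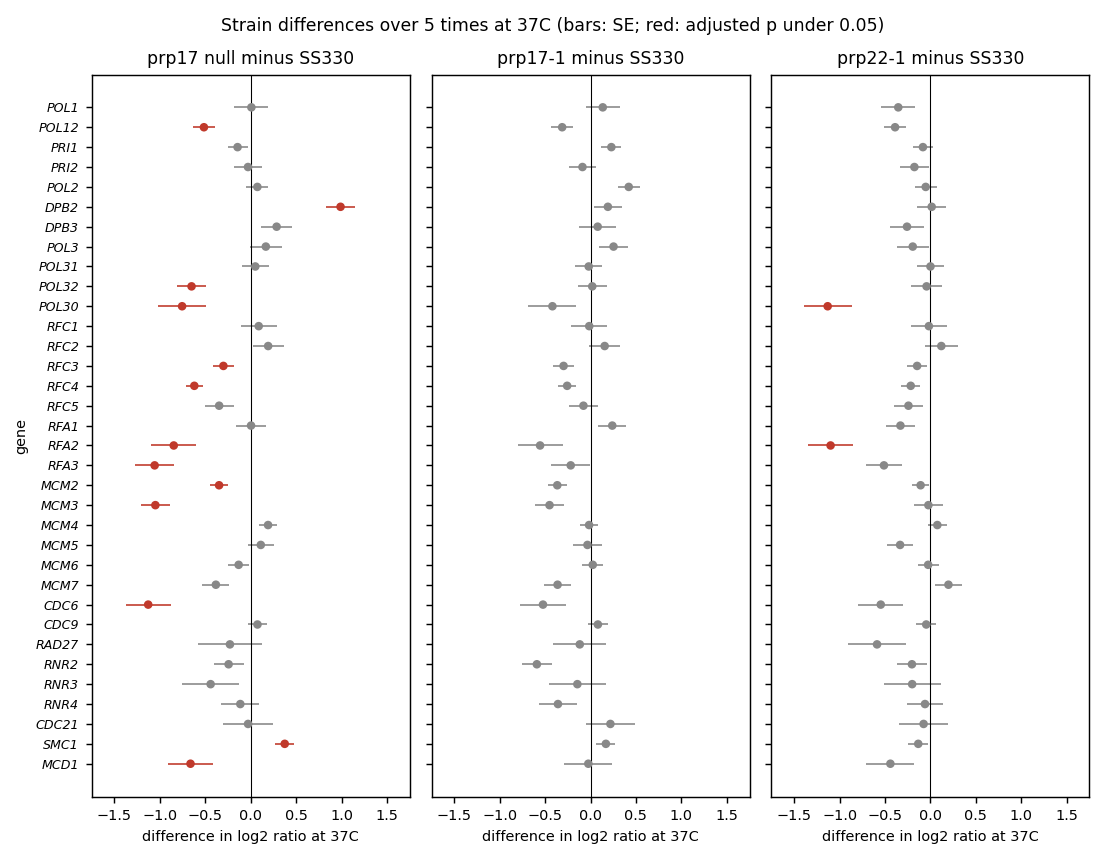
Difference in mean log2 ratio at 37C from SS330 (horizontal axis) for each tested DNA replication gene (down the page), for prp17 null, prp17-1 and prp22-1, with error bars of 1 SE and red points where the limma adjusted p is under 0.05, grey points otherwise. MCM3, CDC6 and RFA3 lie near -1 and DPB2 near 1 in prp17 null, and POL30 and RFA2 lie near -1.1 in prp22-1.

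At 37C, prp17 null differed from SS330 in 13 of the 34 genes (38.24%), 11 lower (32.35%) and 2 higher (5.88%). Of all probes, 34.0% were called in this comparison, 19.4% lower and 14.6% higher. The median difference was -0.14 over the replication genes and -0.04 over all probes. By role, 5 of the 9 clamp, clamp loader and RPA genes were lower, 3 of the 7 genes for MCM, CDC6 and CDC45 were lower, 2 of the 10 polymerase and primase genes were lower and 1 higher, and 1 of the 2 cohesin genes moved in each direction. None of the 4 tested genes of ribonucleotide reductase and CDC21 was called, with differences between -0.44 and -0.03. Leaving out 1 array at a time gave 9 to 14 called genes, and a fit on the arrays of these 2 strains alone gave 6. On the 2 strains alone the calls of POL30, MCD1, RFA2, POL32, RFC3, MCM2 and SMC1 were lost, after quantile normalization those of POL30, MCD1, RFA2 and RFC3, and without the time block those of POL30, MCD1, POL12 and MCM2.

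Among the licensing genes, MCM3, a subunit of the MCM2 to MCM7 ring, was at -0.59, -1.28, -1.72, -1.38, -0.94 and -1.15 in prp17 null at the 6 times. In SS330 it was at 0.03, -0.38, -0.50, -0.22, -0.05 and -0.07. All 5 values at 37C in prp17 null lay below all 5 in SS330, and the null was also lower before the shift, by -0.61. Over 37C MCM3 averaged -1.29 ± 0.29 in prp17 null and -0.24 ± 0.19 in SS330 (SD, n = 5 arrays each), a difference of -1.05 ± 0.16 (SE, limma adjusted p = 0.000263). MCM3 kept its call in each alternative tried, with values from -1.10 to -0.67.

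CDC6 was at -0.65, -0.64, 0.0025, -1.53, -1.69 and -2.10 in prp17 null and at -0.06, 0.45, 0.18, -0.68, -0.18 and -0.08 in SS330. It was lower in the null at each time, by -0.17 at 15 min and by -2.01 at 120 min, although the 2 ranges at 37C overlapped. The difference was -1.13 ± 0.25 (SE, limma adjusted p = 0.00332), and it was -0.63 and still called after quantile normalization. MCM2 was lower by 0.27 to 0.50 at each of the 5 times (difference -0.35 ± 0.10, adjusted p = 0.0135), a call lost without the time block (adjusted p = 0.0765), on these 2 strains alone (0.0762) and without the 3 arrays with the fewest values (-0.31, 0.0529). MCM7 missed the threshold at -0.38 ± 0.15 (adjusted p = 0.0569). Its ranges at 37C all but touched, with the highest null value at -0.7775 and the lowest SS330 value at -0.776. MCM4, MCM5 and MCM6 differed by 0.19, 0.11 and -0.13.

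RPA coats single-stranded DNA at the fork, and 2 of its 3 genes were lower in prp17 null, against 19.4% of all probes. RFA3 had no value at 5 min in the null and stood at -0.75, -1.48, -1.14 and -1.44 from 15 to 120 min. At the same times it stood at -0.40, -0.33, 0.37 and -0.03 in SS330. No null value reached the SS330 range, and the difference was -1.06 ± 0.22 (SE, limma adjusted p = 0.0026), against -0.07 at 23C. After quantile normalization it was -0.67 and still called. RFA1 differed by 0.0041 ± 0.17.

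RFA2 is a gene known to hold an intron, and where its probe lies relative to the intron is not known here. It was at -0.19, 0.20, -1.03, -1.07, -1.56 and -1.71 in prp17 null and at -0.36, -1.35, -0.89, -1.59, -1.42 and -1.19 in prp22-1. It was at 0, -0.70, -0.99, -0.81, -0.61 and -0.60 in prp17-1 and at 0.02, -0.39, 0.05, -0.29, -0.19 and -0.12 in SS330. From 15 to 120 min every mutant value was below every SS330 value at 37C. At 5 min this held for prp17-1 and prp22-1, while prp17 null was above SS330.

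RFA2 differed from SS330 by -0.85 ± 0.25 in prp17 null (limma adjusted p = 0.0158), by -0.56 ± 0.25 in prp17-1 (adjusted p = 0.248) and by -1.10 ± 0.25 in prp22-1 (adjusted p = 0.0183). The call in prp17 null was lost after quantile normalization (-0.47, adjusted p = 0.0736) and without the null array at 60 min (-0.71, adjusted p = 0.0531) or 120 min (-0.65, adjusted p = 0.0559). Set against the mean of the other 2 mutants, RFA2 in prp17 null differed by -0.02 (adjusted p = 0.958).

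For the clamp, POL30 was at -0.67, -0.41, -1.56, -1.90, -2.12 and -1.84 in prp17 null. It was at -0.57, -0.79, -1.82, -1.005, -1.46 and -1.08 in prp17-1 and at -0.75, -1.82, -2.29, -2.42, -1.24 and -1.94 in prp22-1. In SS330 it was at -0.18, -1.03, -0.84, -1.08, -0.49 and -0.62. The prp22-1 values at 37C were all below the SS330 values, those of prp17 null were below them from 15 min on, and those of prp17-1 overlapped them. Each mutant was also below SS330 at 23C.

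POL30 differed from SS330 by -0.75 ± 0.26 in prp17 null (limma adjusted p = 0.0367) and by -1.13 ± 0.26 in prp22-1 (adjusted p = 0.0221). In prp17 null the value was -0.05 and not called after quantile normalization, and the call was lost in 7 of 24 fits without 1 array, the highest adjusted p being 0.125 at -0.55 without the null array at 60 min. In prp22-1 the quantile value was -0.73 and called (adjusted p = 0.0253).

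Among the clamp loader genes, RFC4 was at -0.90, -0.58, -0.24, -0.09 and -0.25 at 37C in prp17 null and at -0.04, 0.11, 0.34, 0.32 and 0.29 in SS330. The 2 sets of values did not overlap, and RFC4 was lower in the null by 0.62 ± 0.10 (SE, limma adjusted p = 0.000348). RFC3 was lower by 0.30 ± 0.11 (adjusted p = 0.0481), also without overlap, but its call was lost in 15 of the 24 fits without 1 array, with -0.24 and an adjusted p of 0.135 without the null array at 60 min, and after quantile normalization (-0.20, adjusted p = 0.162). RFC1, RFC2 and RFC5 differed by 0.09, 0.19 and -0.35 and were not called.

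**Figure D4:**
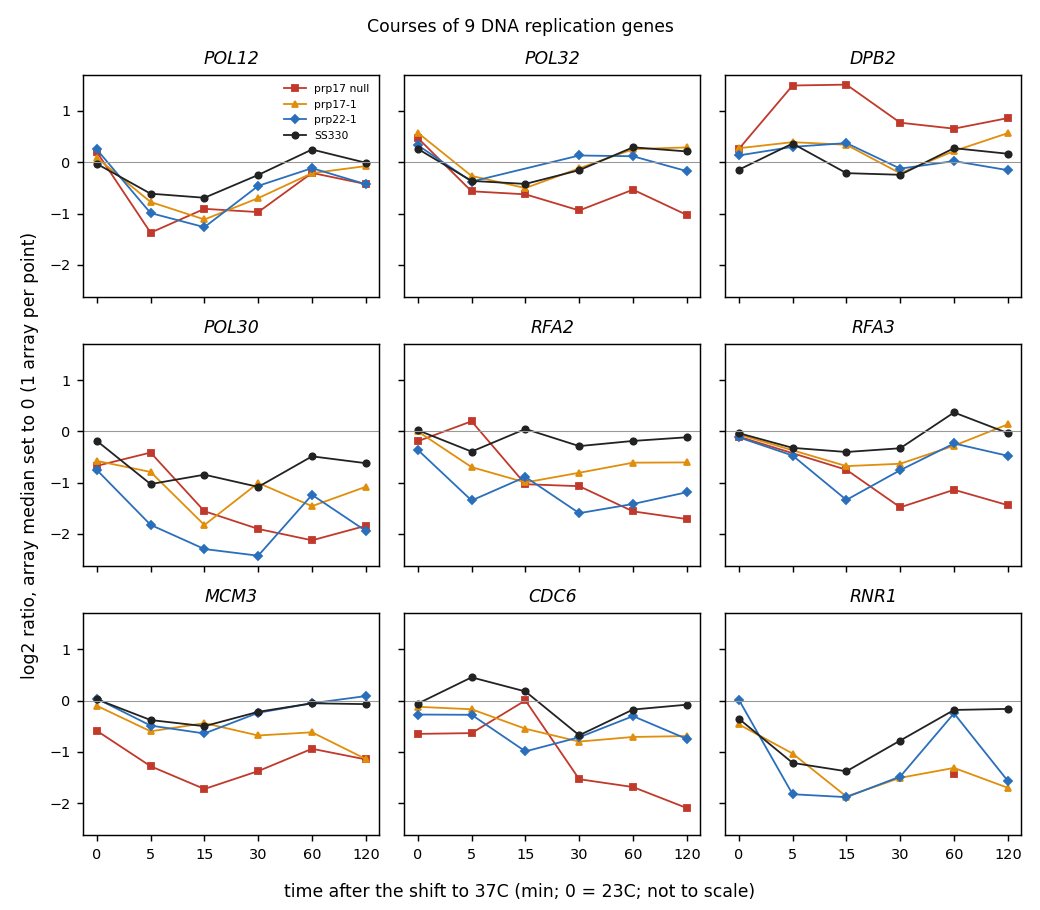
Centred log2 ratio (vertical axis) against minutes after the shift (horizontal axis) for POL12, POL32, DPB2, POL30, RFA2, RFA3, MCM3, CDC6 and RNR1, 1 panel per gene and 1 line per strain, with lines joining the times that have a value. DPB2 in prp17 null lies above the other strains at each time at 37C, and MCM3, POL32 and RFA3 in prp17 null lie below SS330.

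Of the 10 polymerase and primase genes, 2 were lower in prp17 null (POL32 and POL12), 1 was higher (DPB2) and 7 were not called. Of all probes, 19.4% were lower and 14.6% higher. DPB2, the second subunit of polymerase epsilon, was at 0.26, 1.50, 1.51, 0.77, 0.65 and 0.86 in prp17 null and at -0.15, 0.36, -0.21, -0.24, 0.27 and 0.17 in SS330. All null values at 37C lay above the SS330 values, with a gap of 0.40 before the shift as well. DPB2 averaged 1.06 ± 0.41 in prp17 null and 0.07 ± 0.28 in SS330 (SD, n = 5 arrays each), a difference of 0.99 ± 0.16 (SE, limma adjusted p = 0.000388) that kept its call in each alternative, between 0.70 and 1.099. The other epsilon genes, POL2 and DPB3, differed by 0.07 and 0.29 and were not called.

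POL32 was at 0.47, -0.57, -0.63, -0.94, -0.54 and -1.03 in prp17 null and at 0.26, -0.36, -0.42, -0.15, 0.29 and 0.21 in SS330. The null was above SS330 at 23C and below all SS330 values at each time at 37C. The difference at 37C was -0.65 ± 0.16 (SE, limma adjusted p = 0.00593), lost in the fit on these 2 strains alone. POL12 was lower in the null at 5 of 5 times, by 0.51 ± 0.12 (adjusted p = 0.00525), with overlapping ranges. Its difference was -0.30 and still called after quantile normalization, and the call was lost without the time block (adjusted p = 0.148). POL1, POL3, POL31, PRI1 and PRI2 differed by -0.14 to 0.17 and were not called.

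For cohesin, MCD1 was lower and SMC1 higher in prp17 null. MCD1 was at -1.01, -0.95, -1.67, -1.73 and -0.97 at 37C in prp17 null and at -0.47, -1.19, -1.23, 0.02 and -0.13 in SS330, lower at 4 of 5 times. The MCD1 difference of -0.66 ± 0.24 (SE, limma adjusted p = 0.0482) was lost in 14 of the 24 fits without 1 array and was -0.19 after quantile normalization. SMC1 was higher at 5 of 5 times, by 0.38 ± 0.10 (adjusted p = 0.0124).

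The allele prp17-1 and the null of the same gene were set against SS330 in the same fit. At 37C limma called 0 of the 34 genes in prp17-1 minus SS330, against 3.17% of all probes called and 2.22% called lower, and 9 genes, against 18.2% of probes, had an unadjusted p under 0.05. After quantile normalization 4 genes were called, where 523 of the 5487 probes were: MCM2 at -0.40, RNR2 at -0.59, RFC4 at -0.30 and POL2 at 0.49. The fit on these 2 strains alone called 3 (RNR2, CDC6 and RFA2), with 309 probes called in all, and the other alternatives gave 0 or 1. RNR2, whose values stand above, had no overlap with SS330 at 37C and a difference of -0.59 ± 0.17 (SE, limma adjusted p = 0.0628).

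In prp22-1 minus SS330 at 37C, 2 of the 34 genes were called, both lower, against 3.48% of all probes called, 1.68% lower and 1.8% higher. These were POL30 and RFA2, whose values stand above, and 6 genes had an unadjusted p under 0.05, against 18.0% of all probes. The median difference was -0.16 over the 34 genes and -0.02 over all probes, with 29 of the 34 genes negative. Neither gene was called without the SS330 array at 15, 30, 60 or 120 min or the prp22-1 array at 5 min, where POL30 ran from -1.15 to -1.04 and RFA2 from -1.09 to -0.99. Without the prp22-1 array at 15, 30 or 120 min, POL30 was not called, at -1.10, -1.04 and -1.13 with adjusted p of 0.0559, 0.0593 and 0.0589.

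The difference between the null and the other mutants was tested directly. In prp17 null minus the mean of prp17-1 and prp22-1 at 37C, 6 of the 34 genes were called, 4 lower and 2 higher. This share of 17.65% was under the 24.5% of all probes, and the median difference was 0.0006 over the replication genes and -0.03 over all probes. MCM3 was lower by 0.81 (limma adjusted p = 0.000688), RFA3 by 0.69 (0.0173), POL32 by 0.64 (0.00498) and RFC4 by 0.38 (0.00529). DPB2 was higher by 0.89 (adjusted p = 0.00039) and SMC1 by 0.36 (0.0118). After quantile normalization RFA3 and SMC1 were at -0.35 and 0.24 and not called (adjusted p = 0.172 and 0.0791), while MCM3 and POL32 were at -0.48 and -0.41 and still called. RFA3 also lost its call without the null array at 30, 60 or 120 min, the lowest value in size being -0.53 (adjusted p = 0.0895). This comparison and the one with SS330 share the null arrays.

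Other genes of replication and the cell cycle were taken in lists by function. The list of replication initiation had 8 tested genes, of which 4 were lower in prp17 null than in SS330 at 37C, against 19.4% of all probes, and 0 higher, with a median of -0.23 against -0.04 over all probes. The 4, which were picked out after their values were seen, were PSF1, SLD5, PSF2 and PSF3, the 4 subunits of the GINS complex that joins CDC45 and MCM in the active helicase. Their differences were -0.90 ± 0.20, -0.40 ± 0.11, -0.40 ± 0.15 and -0.32 ± 0.10 (SE, limma adjusted p = 0.00439, 0.011, 0.0464 and 0.0253).

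Of the 8 tested genes for origin recognition and licensing outside the set, 2 were lower in prp17 null and 1 was higher. The shares over all probes were 19.4% and 14.6%. MCM10 and ORC5 were lower by 0.52 each, and TAH11, the yeast Cdt1 that brings MCM to origins, was higher, by 0.88 ± 0.25 (limma adjusted p = 0.0148). TAH11 also rose with the shift, by 0.62 ± 0.18 (adjusted p = 0.0141). Of the 12 tested genes of nucleotide supply and its control, 2 were lower in prp17 null and 1 was higher, against the same shares of all probes. CDC8 and DCD1 were lower, by 0.61 ± 0.13 and 0.83 ± 0.19 (adjusted p = 0.00385 and 0.00525). DUN1, the checkpoint kinase that relieves repression of the ribonucleotide reductase genes, was higher by 0.58 ± 0.16 (adjusted p = 0.013). With the shift 3 of the 12 fell and 1 rose, against 16.9% and 13.8% of all probes. DUT1, the dUTPase, fell by 0.95 ± 0.17 (adjusted p = 0.000722). GUK1 was lower by 0.71 and YNK1 higher by 0.60.

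Of the 11 tested genes in the list of other fork and Okazaki fragment genes, 4 fell with the shift, against 16.9% of all probes, and 1 rose, against 13.8%. RNH201, a subunit of RNase H2, fell by 0.65 ± 0.15 (limma adjusted p = 0.00274), and the helicase and nuclease DNA2 was higher by 0.47 ± 0.16 (adjusted p = 0.0336). Of the 8 other cohesion genes 3 fell: PDS1, which encodes securin, by 0.53 ± 0.09 (adjusted p = 0.000347), IRR1 by 0.41 and ECO1 by 0.37. Late minus early, IRR1 was higher by 0.50 ± 0.09 (adjusted p = 0.000451).

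Genes that mark cell cycle phases were called in some of the same comparisons and in others where no replication gene was. With the shift 8 of 8 histone genes, 3 of 6 G1 and S cyclin genes, 3 of 5 tested G2/M genes and 2 of 9 M/G1 genes fell, against 16.9% of all probes, and none of these rose. In prp17 null against SS330 at 37C, 4 of 8 histone genes, 3 of 6 cyclin genes, 3 of 5 G2/M genes and 3 of 9 M/G1 genes were lower, against 19.4% of all probes, and none was higher. The G1 cyclin CLN2 differed by -1.16 ± 0.25 in that comparison (limma adjusted p = 0.00302). A list of MBF and SBF factors and genes related to them had 7 tested genes. Of these, 2 were higher in prp17 null, against 14.6% of all probes, and 0 lower. They were SWI4 and XBP1, higher by 0.51 and 0.73. Late minus early, CLN2 was higher by 1.02 ± 0.19 (adjusted p = 0.00112), and 6 of 9 M/G1 genes were lower, against 7.67% of all probes. For that change in prp17 null against SS330, 6 of 8 histone genes, 2 of 5 G2/M genes, 1 of 8 M/G1 genes and 0 of 6 cyclin genes were lower. The share over all probes was 3.09%, and 0 of 34 replication genes were called. In prp17-1 against SS330 at 37C, 3 of 9 M/G1 genes were lower, against 2.22% of all probes. Paralogous histone genes share sequence, and their probes may share signal. The part of cell cycle position in the values of the replication genes was not tested.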

How the data were processed

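Each two-colour array compared total RNA of one strain and time (Cy5) with yeast genomic DNA (Cy3), per the labels. The authors deposited 1 ratio per probe and array, read here as a log2 value since neither its base nor its direction is stated. How they corrected background, normalized and filtered spots is not given in the sources used here, and the number of arrays limits the precision. Columns were matched to samples by their labels, and probes to genes through the platform annotation.

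Each array was centred on its median. Probes with a value on at least 20 of 24 arrays and at least 3 of the 5 arrays at 37C in each strain were tested (5487 of 6350). Tests used R 4.3.3 and limma 3.58.1, with exact least squares per probe, moderated variances and Benjamini-Hochberg adjusted p over all tested probes. Strain comparisons used all 24 arrays with time as a block, and temperature comparisons used strain as a block. On simulated data with 5487 probes, of which 200 were changed, the prp17 null fit recovered 85% of log2 changes of 1 and 98% of changes of 1.5. There the noise was independent between arrays and each change was equal at all 5 times at 37C. The real arrays are successive times of 1 course, and 1863 probes were called. These rates therefore check the code and do not give the power of the real tests.

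The same times in different strains pair the arrays by design of the course, and the fits without that block are among the alternatives. Alternatives were no centring, quantile normalization, other filters, a trended robust prior, the compared strains alone, a stricter threshold, and leaving out each array. The comparison of 60 to 120 min with 5 to 30 min, and the fit without the 3 arrays with the fewest values, were added after seeing the data. The genes and lists were chosen with earlier results of these data known. Genes were named where called, where they belong to the set, or, for other lists, as up to 3 called genes by size of the difference, with all 4 called genes of replication initiation as the exception. CDC40 and, chosen after seeing the data, HSP104 were used to set the direction of the ratio. They are therefore no separate check of the labels. PRP22, SSA4 and the mating type genes STE2 and STE3 were also looked at. STE2 ran from -0.67 to 4.39 in prp17 null, from 0.40 to 1.90 in prp17-1, from 1.57 to 2.23 in prp22-1 and from 1.21 to 2.05 in SS330. STE3 had no value in prp17 null. SSA4 at 37C lay between 4.25 and 4.53 in prp17 null and between 0.04 and 3.63 in SS330. PRP22 ran from -0.48 to 0.50 in prp22-1 and from -0.42 to 0.01 in SS330. Figures were drawn with matplotlib 3.10.9.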

Additional observations from a re-analysis of the deposited data

Results flagged for a closer look

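In 5 of 142 sets of 4 or 5 values of one replication gene in one strain at 37C, 1 array stood apart from the others by Dixon's criterion, which is 3.52% of the sets where chance gives about 5%. In prp17 null at 5 min, PRI1 was at 0.113 and the other 4 values lay between -0.561 and -0.388, and DPB3 was at 0.87 with the others between -0.306 and -0.0255. In prp22-1, DPB3 was at -0.728 at 120 min with the other 3 values between -0.42 and -0.375, and MCM6 was at -0.545 at 15 min with the others between -0.104 and 0.007. RNR1 in prp22-1 was at -0.25 at 60 min with the others between -1.88 and -1.48. Since each array is a different time after the shift, a value that stands apart may be that time or that array, and these cannot be told apart.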

How the results depend on the processing

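Of 41 called differences of single genes, 17 were called in every alternative and every fit without 1 array in which they could be fitted, and 0 changed sign. The 13 calls in prp17 null minus SS330 became 7 of 18 testable genes when a value on all 24 arrays was required, 6 with only the arrays of the strains compared and 7 at an adjusted p under 0.01. The 0 calls in prp17-1 minus SS330 became 4 after quantile normalization, 1 with a trended robust prior, 3 with only the arrays of the strains compared and 1 without the 3 arrays with the fewest values. The 2 calls in prp22-1 became 0 at an adjusted p under 0.01. The 6 calls of prp17 null against the other mutants became 2 with values on all 24 arrays. The 14 calls of 37C minus 23C became 8 with no replicate block and 6 at an adjusted p under 0.01. The 6 late minus early calls became 3 with values on all 24 arrays and 3 with no replicate block. The change from 23C in prp22-1 gave 1 call in place of 0 after quantile normalization, and the late minus early change in prp17 null gave 3 without the 3 arrays with the fewest values. Without the block the paired times gave 9 calls in prp17 null, 0 in prp17-1, 2 in prp22-1 and 6 in prp17 null against the other mutants. Leaving out 1 array at a time gave 9 to 14, 0 to 1, 0 to 2 and 5 to 9 calls in these 4 comparisons, 6 to 15 for 37C minus 23C, 5 to 9 for late minus early, 0 to 1 for the late minus early change in prp17 null and 0 for the other 5 differences of changes. With no centring the split over all probes in prp17 null minus SS330 was 920 higher and 870 lower, against 801 and 1062 with it, and RFC3 and MCD1 were not called. Each strain is 1 course, its single array at 23C bounds every statement about the shift, and a planned count of promoter motifs was not run for want of sequence.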
